A study of Mus musculus with 9 samples.

Results

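The genes described here are the mouse translation initiation factors (Eif) and elongation factors (Eef), taken as every row of the count table whose symbol starts with Eif or Eef followed by a digit, without the Y-linked match. The rule matched 77 rows, 1 of which was Y-linked, and left 76 members of 53342 genes. Of these, 67 were protein coding in GENCODE M21 and 9 were not. By role, 42 were initiation factors, 8 were elongation factors, 17 were regulators or other proteins, such as the 4E-binding proteins and the eIF2 kinases, and 9 were pseudogenes or non-coding. Enough counts for a test were found for 65 members: 41 initiation factors, 8 elongation factors, 15 regulators and others, and 1 pseudogene. The other 11 members were not tested, and 3 of them had 0 counts in all 9 libraries.

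The libraries came from bone-marrow-derived macrophages of wild-type C57BL/6J mice of both sexes, aged 8 to 12 weeks, grown from marrow that was kept apart by animal. All 3 groups were exposed for 24 h to a homogenate of pooled mouse spinal cords at 10 mg/mL (1% w/v), so none is an untreated control. The groups differ in what the cells were given for 2 h before the homogenate was added: vehicle, rapamycin, which binds FKBP12 and inhibits mTOR complex 1, or Torin-2, which blocks the kinase site of mTOR itself and so acts on both of its complexes. Each group had 3 biological replicates, and no source used here states a dose for either compound. The cells were washed before lysis, yet oligodendrocyte transcripts could still be counted. The cultures are bulk samples, in which fewer cells of a type and less RNA per cell cannot be told apart.

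Translation initiation loads the small ribosomal subunit with the initiator tRNA carried by eIF2, recruits it to the capped 5′ end of an mRNA through eIF4F and eIF3, and scans to the start codon under eIF1, eIF1A and eIF5. Elongation then uses eEF1A to deliver aminoacyl-tRNA, the eEF1B complex to recharge eEF1A with GTP, eEF2 to move the ribosome along, and eIF5A to relieve stalling, despite the name of the last. mTOR complex 1 acts on this machinery through phosphorylation of the 4E-binding proteins, which hold back the cap-binding protein eIF4E, and through S6 kinases that act on eIF4B and on eEF2 kinase. The mRNAs of most elongation factors and a few initiation factors carry a 5′ terminal oligopyrimidine (TOP) tract, through which mTOR complex 1 controls their translation. All values below are mRNA levels, which do not report protein amounts, phosphorylation or translation.

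Total counts per library ran from 16116666 to 24044329, and levels are given in CPM, counts scaled by library size and TMM factor, in the order of replicates 1 to 3. All 7 macrophage markers were detected, with summed levels of 11800 to 16400 CPM with vehicle, 19100 to 20700 with rapamycin and 14700 to 16500 with Torin-2. Most of that sum was Lyz2, at 8129 to 11760, 14250 to 15830 and 10700 to 12670 CPM. Adgre1 and Fcgr1 were lower with both compounds, Adgre1 at 869.9 to 992.8, 640.5 to 783.6 and 659.9 to 708.6 CPM and Fcgr1 at 91.04 to 108.2, 73.08 to 79.1 and 31.19 to 41.51 CPM. Csf1r and Mertk were higher with both. Csf1r stood at 455.3 to 495.1, 619.2 to 777.6 and 560.7 to 598.3 CPM, and Mertk at 173 to 175.4, 192.9 to 210.9 and 235.1 to 237 CPM. Itgam was higher with rapamycin (142.5 to 156.8 CPM, against 82.94 to 94.12 with vehicle) and overlapped vehicle with Torin-2. Cd68 overlapped vehicle with both. The 5 oligodendrocyte markers summed to 449 to 577 CPM with vehicle, 671 to 821 with rapamycin and 347 to 405 with Torin-2, and none of the 5 stood at 0 throughout. The 4 fibroblast markers summed to 7.03 to 32.2, 10.7 to 72.2 and 2.26 to 6.59 CPM in the same order, with replicate 3 the lowest of each group. The 4 astrocyte and neuron markers summed to 15 to 18.5, 18.9 to 29 and 10.8 to 11.4 CPM. Of the neutrophil markers 3 of 4 stood at 0 in all libraries, and of the lymphocyte markers 2 of 3. The part of these cord and stromal transcripts in the results below was not tested.

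The pyrimidine tract makes the first bases of these genes worth reading beside their values. RefSeq (GRCm38.p6) start windows were found for 52 members. Each window holds 5 bases before the annotated start and 25 from it, 5′ to 3′ on the gene's strand, and capitals mark a C followed by at least 4 pyrimidines. The first 5 lines are genes long listed as TOP mRNAs, and the next 5 are the members with the largest rises with Torin-2.
Eef1a1 chr9:78481700-78481729 - strand: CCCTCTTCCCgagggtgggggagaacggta
Eef2 chr10:81176626-81176655 + strand: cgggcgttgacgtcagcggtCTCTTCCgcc
Eif3f chr7:108934410-108934439 + strand: gCTCTCTCTCTTTCTCggcaagatggcttc
Eif4b chr15:102073768-102073797 + strand: tcggacgccgcgccaCCCCCTCgcgctgct
Eef1b2 chr1:63176826-63176855 + strand: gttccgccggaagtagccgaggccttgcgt
Eif4a2 chr16:23107463-23107492 + strand: cccgtaggagcagggcggccgaggagcgcg
Eif1 chr11:100319944-100319973 + strand: cacaggggcggctatataagtgaatacagg
Eif2a chr3:58525816-58525845 + strand: cgcccgctccggagagggagggcgagcgcc
Eif3a chr19:60790669-60790698 - strand: gcggcggcgctgccgccgcgagggaatcac
Eif5 chr12:111538096-111538125 + strand: tgcatgcgagccaatgacaagagaagttgg
A tract was found in 4 of the 5 listed TOP genes with a window, the exception being Eef1b2, and in none of the 5 genes with the largest rises. It was counted wherever it lay in the window. It began 5 and 4 bases before the annotated start in Eef1a1 and Eif3f, and at bases 16 and 11 from it in Eef2 and Eif4b. In none of the 4 did it begin at the annotated start, so a match does not show a 5′ terminal tract. Such a tract is common, since 34.6% of 32851 RefSeq windows and 38.5% of 27025 genes hold one, against 21 of the 52 members (40.4%). A match is a description of the letters in this window, and RefSeq starts may differ from the starts used in these cells.

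Members moved in both directions with each compound. With Torin-2, 23 of 65 tested members rose (35.4%) and 27 fell (41.5%), while 32.5% of all 12511 tested genes rose and 32.9% fell (edgeR quasi-likelihood test, Benjamini-Hochberg adjusted p under 0.05). With rapamycin, 20 rose (30.8%) and 25 fell (38.5%), beside 24.6% and 26.2% of all genes. Between Torin-2 and rapamycin, 16 were higher with Torin-2 (24.6%) and 19 lower (29.2%), beside 24.2% and 24.1% of all genes. The median log2 fold change of the tested members was 0.01, -0.10 and 0.00 in these comparisons, and that of all genes -0.01, 0.00 and 0.00. The 2 comparisons with vehicle share the vehicle libraries. Members took 1.76% to 1.86% of the counts of a vehicle library, 2.44% to 2.65% with rapamycin and 2.57% to 2.58% with Torin-2. Eef1a1 alone had means of 6267 CPM with vehicle, 13684 with rapamycin and 12792 with Torin-2, so this share mostly follows 1 gene. With libraries scaled by their totals alone, the share of higher genes among all calls moved from 48.5% to 37.4% for rapamycin against vehicle and from 50.1% to 59.7% for Torin-2 against rapamycin.

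Both classes held genes that rose and genes that fell. With Torin-2, 16 of 41 initiation factors rose (39%) and 15 fell (36.6%), and 4 of 8 elongation factors rose and 3 fell. Of all tested genes 32.5% rose and 32.9% fell. With rapamycin the counts were 13 (31.7%) and 15 (36.6%) of 41, and 3 and 3 of 8, beside 24.6% and 26.2% of all tested genes. The summed level of all initiation factors was 7364 ± 168 CPM with vehicle, 7269 ± 262 with rapamycin and 8669 ± 71.9 with Torin-2 (SD, n = 3). The summed level of the 8 elongation factors was 9589 ± 171, 18470 ± 1030 and 16270 ± 181 CPM.

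Elongation factor mRNA thus stood at 1.302 ± 0.0162 times initiation factor mRNA with vehicle, 2.54 ± 0.061 times with rapamycin and 1.877 ± 0.0306 times with Torin-2 (SD, n = 3). Per library the ratio was 1.305, 1.285 and 1.317 with vehicle, 2.556, 2.473 and 2.592 with rapamycin, and 1.866, 1.912 and 1.854 with Torin-2. The 3 groups did not overlap, and rapamycin was the highest and vehicle the lowest. Being formed within each library, this ratio does not move with library scaling. Most of it was Eef1a1, with 64.5% to 78.7% of the elongation factor counts of a library. Without Eef1a1 the ratio was 0.451, 0.659 and 0.401 with vehicle, rapamycin and Torin-2, so that rapamycin stayed the highest but Torin-2 fell below vehicle. Leaving out Eif5a and Eif5a2 instead gave 1.19, 2.468 and 1.844. The ratio without Eef1a1 still held Eif5a, whose mean went from 806 CPM with vehicle to 273 CPM with Torin-2. Eef1g, Eef1a2 and Eif5a2 also had lower means with Torin-2 than with vehicle, while Eef2, Eef1b2 and Eef1d had higher ones. The elongation sum without Eef1a1 was 3264 to 3433 CPM per vehicle library and 3452 to 3505 CPM with Torin-2. Of this sum Eif5a made up 754 to 862 and 256 to 285 CPM. The place of Torin-2 below vehicle thus depends on Eif5a and does not describe the other elongation factors as a set. No ratio without both Eef1a1 and Eif5a is given.

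**Figure D1:**
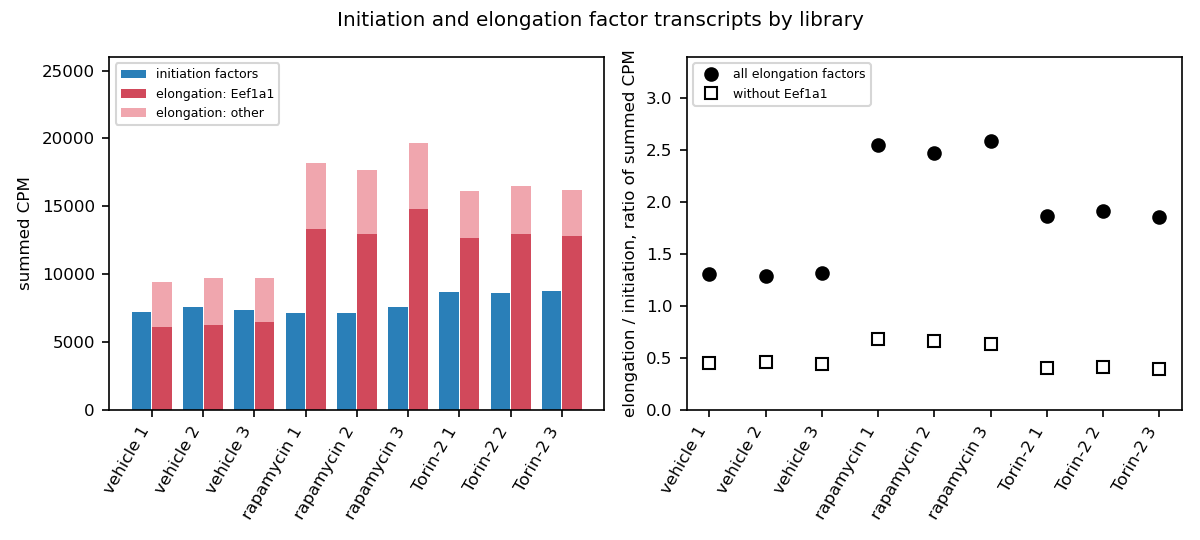
Summed CPM of the 42 initiation factors and the 8 elongation factors (split into Eef1a1 and the rest) in each of the 9 libraries, and the ratio of elongation to initiation with and without Eef1a1. Each bar or point is 1 library; the ratio of all elongation factors lies at 1.285 to 1.317 with vehicle, 2.473 to 2.592 with rapamycin and 1.854 to 1.912 with Torin-2.

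Among the elongation factors, Eef1a1, Eef2 and Eef1b2 rose with both compounds, while Eef1g and Eif5a fell with both. Eef1a1 encodes eEF1A, which carries aminoacyl-tRNA to the ribosome (ENSMUSG00000037742, chromosome 9 from 78478449 to 78489151 on GRCm38). It stood at 6123, 6248 and 6431 CPM with vehicle, 13314, 12940 and 14797 CPM with rapamycin and 12641, 12968 and 12768 CPM with Torin-2. Each treated library lay above each vehicle library, by a log2 fold change of 1.13 ± 0.07 (SE, edgeR adjusted p 2.33e-07) with rapamycin and 1.03 ± 0.07 (SE, edgeR adjusted p 8.76e-08) with Torin-2. The 2 compounds overlapped, with a difference of -0.10 (95% interval -0.24 to 0.05, edgeR adjusted p 0.254).

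Eef2, the translocase (ENSMUSG00000034994, chromosome 10 from 81176631 to 81182498), stood at 1752, 1799 and 1846 CPM with vehicle, 3584, 3413 and 3537 CPM with rapamycin and 2529, 2517 and 2514 CPM with Torin-2. The groups did not overlap, and rapamycin was the highest. Its rise was 1.95-fold with rapamycin and 1.4-fold with Torin-2, and Torin-2 lay below rapamycin, with a log2 fold change of -0.48 ± 0.05 (SE, edgeR adjusted p 1.95e-05). In length-corrected terms Eef1a1 and Eef2 were the 2 highest members with vehicle, at 2514 and 541 CPM per kb of exon.

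The 3 subunits of eEF1B, the nucleotide exchange factor of eEF1A, did not move together. Eef1b2, a catalytic exchange subunit, stood at 193, 198 and 179 CPM with vehicle, 309, 315 and 305 CPM with rapamycin and 294, 308 and 280.1 CPM with Torin-2, with the treated groups overlapping each other and above vehicle. Eef1g, a scaffold subunit, stood at 393, 428 and 378 CPM with vehicle, 313, 297 and 359 CPM with rapamycin and 216, 219 and 248 CPM with Torin-2, the order running down from vehicle through rapamycin to Torin-2 without overlap. The log2 fold changes of Eef1b2 were 0.71 with rapamycin and 0.63 with Torin-2 (edgeR adjusted p 1.78e-06 and 1.05e-06), and those of Eef1g were -0.31 and -0.81 (edgeR adjusted p 0.00759 and 3.17e-06). The ratio of Eef1b2 to Eef1g per kb of exon was 0.488 ± 0.0153 with vehicle, 0.992 ± 0.109 with rapamycin and 1.33 ± 0.152 with Torin-2 (SD, n = 3). Exons of Eef1b2 overlap Ndufs1 on the opposite strand, which had a mean of 72.2 CPM and fell by 0.46 with rapamycin and 0.84 with Torin-2 on the log2 scale. Eef1d, the other exchange subunit, stood at 91.7, 105 and 79.7 CPM with vehicle, 103, 101 and 112 CPM with rapamycin and 142, 147 and 135 CPM with Torin-2. It rose with Torin-2 by 0.62 ± 0.09 (SE, edgeR adjusted p 5.44e-05). With rapamycin its log2 fold change of 0.19 had an edgeR adjusted p of 0.0857, of 0.0442 with the replicate number as a block and of 0.00908 without vehicle replicate 2. Over the 16 alternatives that log2 fold change ran from 0.052 to 0.296 and its adjusted p from 0.00908 to 0.584.

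Eif5a, which helps ribosomes past stalling sequences (ENSMUSG00000078812, chromosome 11 from 69916714 to 69921958), stood at 803, 862 and 754 CPM with vehicle, 497, 546 and 491 CPM with rapamycin and 276, 285 and 256 CPM with Torin-2. The groups did not overlap and ran down in that order, to 2.96-fold lower with Torin-2 (log2 fold change -1.57 ± 0.07 SE, edgeR adjusted p 4.13e-09) and 1.58-fold lower with rapamycin (-0.66 ± 0.07 SE, edgeR adjusted p 1.24e-05). This was the largest fall of any tested member with Torin-2. Its paralog Eif5a2 stood far lower, at 19.1, 21.01 and 16.3 CPM with vehicle, 13.4, 16.9 and 13.5 CPM with rapamycin and 12.03, 15.1 and 14.1 CPM with Torin-2, and its log2 fold changes were -0.45 and -0.36 with Torin-2 and rapamycin (edgeR adjusted p 0.00858 and 0.0348). The rapamycin call for Eif5a2 was lost without vehicle replicate 1 or 2 or rapamycin replicate 1 or 3, with edgeR adjusted p of 0.0853, 0.127, 0.117 and 0.107. With Eif5a and Eif5a2 left out of the class, the median log2 fold change of the elongation factors was 0.45 with rapamycin and 0.55 with Torin-2, in place of -0.04 and 0.02. The last value was -0.005 with libraries scaled by totals alone.

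Eef1a2, the eEF1A form of neurons and muscle, stood at 18.9, 20.9 and 10.2 CPM with vehicle, 15.2, 18.2 and 8.22 CPM with rapamycin and 11.3, 13.6 and 4.56 CPM with Torin-2. Replicate 3 was the lowest library of each group, and the groups overlapped. Its log2 fold change with Torin-2 was -0.78 (edgeR adjusted p 0.0912), against 1.97e-05 with the replicate number as a block and 0.000919 without replicate 3 of all groups. For rapamycin and for Torin-2 against rapamycin the unblocked adjusted p was 0.582 and 0.297, against 0.0456 and 0.00127 with the block. Without vehicle replicate 3 or Torin-2 replicate 2 the Torin-2 value was 0.0249 or 0.0457. The fibroblast marker sum was also lowest in replicate 3 of each group, at 7.03, 10.7 and 2.26 CPM, a sum made up almost wholly of Col1a1 and Col1a2, whereas Dcn, under 1 CPM throughout, was highest in replicate 3 of the rapamycin group. The astrocyte and neuron marker sum was 15.5, 18.5 and 15 CPM with vehicle, 29, 25.5 and 18.9 with rapamycin and 10.8, 11.4 and 10.8 with Torin-2. The part of these transcripts in the Eef1a2 values was not tested.

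**Figure D2:**
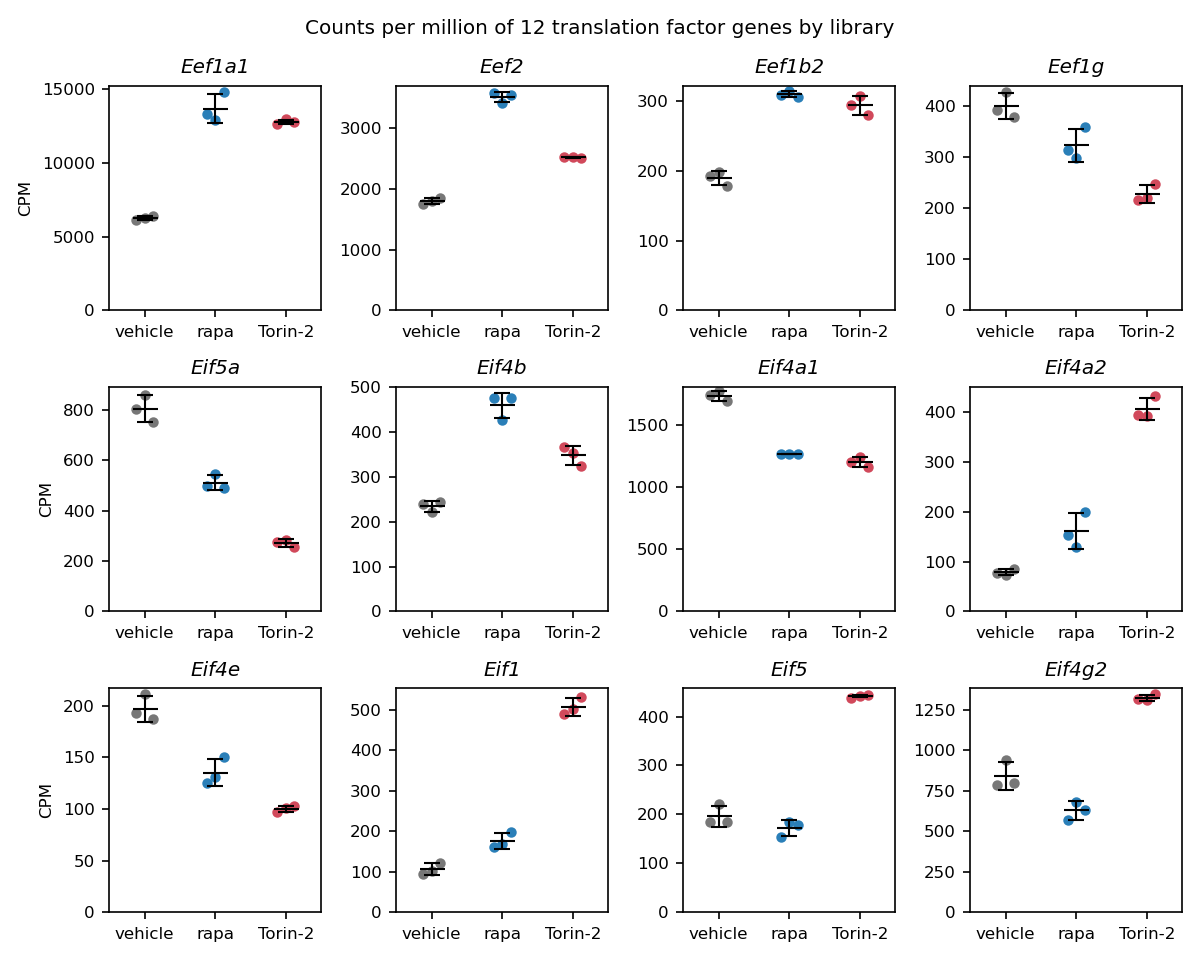
CPM of 12 members in each library, with each point 1 library and the bar and whiskers the mean and SD of 3 replicates; the vertical axes start at 0 and differ between genes. Eef1a1, Eef2, Eef1b2 and Eif4b stand higher with both compounds than with vehicle, Eif5a, Eef1g, Eif4a1 and Eif4e lower, and Eif1, Eif5, Eif4a2 and Eif4g2 stand highest with Torin-2.

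The members commonly listed as TOP mRNAs were all tested, 9 in number: Eef1a1, Eef1b2, Eef1d, Eef1g, Eef2, Eif3e, Eif3f, Eif3h and Eif4b. With Torin-2 8 of the 9 rose and Eef1g fell, beside 32.5% of all tested genes that rose and 32.9% that fell, with a median log2 fold change of 0.62. With rapamycin 7 rose, Eef1g fell and Eef1d did not pass, beside 24.6% and 26.2% of all genes, with a median of 0.90. Without replicate 3 of all groups, an alternative chosen after seeing the data, the counts were 8 and 1, and 7 and 1. Between the compounds, 4 were lower with Torin-2 (Eef2, Eef1g, Eif3f and Eif4b), Eef1d was higher and 4 did not pass. The list was chosen with earlier results of these data known and is no independent evidence of a direction.

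Among members with a start window, a tract as defined above was found in 10 of the 18 that rose with Torin-2, in 7 of the 20 that fell and in 3 of the 13 that did not pass. With rapamycin it was found in 11 of 18 that rose, 4 of 18 that fell and 5 of 15 that did not pass. Between Torin-2 and rapamycin, 1 of 13 higher members (Eif3l) and 9 of 16 lower members had one. These shares count tracts anywhere in the window, some of them near its end, and not tracts at the annotated start alone. No test was made of these shares.

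eIF2 carries the initiator tRNA, and eIF2B recharges it with GTP. Eif2s1, the alpha subunit that the eIF2 kinases phosphorylate, stood at 161, 182 and 148 CPM with vehicle, 111, 126 and 123 CPM with rapamycin and 104, 103 and 108 CPM with Torin-2. The treated groups lay below vehicle, with log2 fold changes of -0.45 ± 0.08 (SE, edgeR adjusted p 0.000489) with rapamycin and -0.64 ± 0.08 (SE, edgeR adjusted p 1.4e-05) with Torin-2. Between the compounds the difference of -0.19 had an edgeR adjusted p of 0.0556, and of 0.0289 with the replicate number as a block. Over the 16 alternatives that adjusted p ran from 0.0139 to 0.264. Eif2s2, the beta subunit, stood at 198, 211 and 199.6 CPM with vehicle, 153, 154 and 181 CPM with rapamycin and 145, 152 and 151 CPM with Torin-2, again with both treated groups below vehicle (-0.32 and -0.44, edgeR adjusted p 0.00204 and 0.000104). Eif2s3x, the gamma subunit, stood at 91.97, 96.97 and 83.05 CPM with vehicle, 80.8, 82.4 and 91.3 CPM with rapamycin and 90, 89.7 and 85.5 CPM with Torin-2, with all groups overlapping and no comparison passing. Its edgeR adjusted p was 0.654 for Torin-2 and 0.276 for rapamycin, the latter 0.0472 with libraries scaled by totals and 0.0157 without replicate 3 of all groups. Over the 16 alternatives the rapamycin value ran from 0.0157 to 0.657. Per kb of exon, the highest and lowest of the 3 subunits were 1.39-fold apart with vehicle and 1.09-fold apart with either compound.

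Of the 5 eIF2B subunits, 4 fell with rapamycin, beside 26.2% of all genes, and 2 with Torin-2, beside 32.9%. Eif2b1, the regulatory alpha subunit, stood at 25.2, 29.99 and 30.3 CPM with vehicle, 17.1, 16.3 and 18 CPM with rapamycin and 25.8, 28.4 and 30.1 CPM with Torin-2. Its rapamycin libraries lay below the others, with -0.73 ± 0.09 (SE, edgeR adjusted p 6.26e-05) against vehicle, while vehicle and Torin-2 overlapped (-0.02, 95% interval -0.22 to 0.18, edgeR adjusted p 0.866). Torin-2 lay above rapamycin by 0.71 ± 0.10 (SE, edgeR adjusted p 7.44e-05). Eif2b3 and Eif2b5, of the catalytic part, fell by 0.62 and 0.44 on the log2 scale with Torin-2 and by 0.47 and 0.31 with rapamycin. Eif2b4 fell with rapamycin alone among the comparisons with vehicle (-0.26, edgeR adjusted p 0.024), a call lost without vehicle replicate 3 or rapamycin replicate 1 or 2. The call was also lost with DESeq2 (adjusted p 0.0506), and in edgeR with no filter (0.0702) and with only the 2 groups compared (0.0514). Exons of Eif2b4 overlap Snx17 on the opposite strand, which had a mean of 141 CPM and fell by 0.42 with rapamycin and 0.67 with Torin-2 on the log2 scale. Eif2b2 rose by 0.19 with each compound (edgeR adjusted p 0.0277 and 0.0381). The Torin-2 call was lost without vehicle replicate 1 or 2 or Torin-2 replicate 2 or 3 (adjusted p 0.0659 to 0.121). The rapamycin call was lost with libraries scaled by totals (0.237) and without vehicle replicate 1 or 2, rapamycin replicate 1 or 3, or Torin-2 replicate 2 or 3 (0.0508 to 0.129).

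The factors that choose the start codon held the second largest rise of all members. Eif1, which keeps the scanning complex open until a start codon is met (ENSMUSG00000035530, chromosome 11 from 100319885 to 100322096), stood at 93.9, 103 and 122 CPM with vehicle, 161, 168 and 199 CPM with rapamycin and 488, 501 and 531 CPM with Torin-2. The groups did not overlap, and the Torin-2 libraries lay far above the rest. The log2 fold changes were 2.25 ± 0.10 (SE, edgeR adjusted p 4.85e-09) for Torin-2 against vehicle, 0.73 ± 0.10 (SE, edgeR adjusted p 9.27e-05) for rapamycin against vehicle and 1.52 ± 0.10 (SE, edgeR adjusted p 3.72e-07) for Torin-2 against rapamycin. Its near-identical paralog Eif1b stood at 42.1, 40.1 and 45.8 CPM with vehicle, 37.8, 37.3 and 44.5 CPM with rapamycin and 49.9, 45.2 and 52.5 CPM with Torin-2, with the Torin-2 group overlapping vehicle. Its log2 fold change with Torin-2 was 0.21 (95% interval 0.02 to 0.39, edgeR adjusted p 0.0519, or 0.0057 with the replicate block). The ratio of Eif1 to Eif1b per kb of exon went from 1.33 ± 0.122 with vehicle to 2.37 ± 0.0766 with rapamycin and 5.54 ± 0.362 with Torin-2 (SD, n = 3). Reads shared by such close paralogs could be split between them in counting.

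Eif5, which makes eIF2 hydrolyse GTP and opposes eIF1 at the start codon (ENSMUSG00000021282, chromosome 12 from 111538016 to 111546752), stood at 185, 221 and 184 CPM with vehicle, 154, 184 and 179 CPM with rapamycin and 439, 442 and 443 CPM with Torin-2. Vehicle and rapamycin overlapped and Torin-2 lay above both, by 1.17 ± 0.08 (SE, edgeR adjusted p 1.6e-07) against vehicle and 1.35 ± 0.08 (SE, edgeR adjusted p 2.39e-07) against rapamycin. For rapamycin against vehicle the log2 fold change of -0.19 had an edgeR adjusted p of 0.0788, of 0.0234 with the replicate block, of 0.0463 without vehicle replicate 3 and of 0.0167 with libraries scaled by totals. Over the 16 alternatives that adjusted p ran from 0.0167 to 0.33. Eif1a and Eif1ax, encoding eIF1A, fell with both compounds, by 0.29 and 0.61 on the log2 scale with Torin-2 and by 0.30 and 0.34 with rapamycin. Eif5b, the GTPase of subunit joining, stood at 34.4, 26.6 and 45.7 CPM with vehicle, 54.8, 39.6 and 42.4 CPM with rapamycin and 29.8, 22.3 and 26.3 CPM with Torin-2, with wide spread within groups. It was lower with Torin-2 than with rapamycin (-0.80 ± 0.18 SE, edgeR adjusted p 0.00345). Its fall against vehicle (-0.45, edgeR adjusted p 0.0496) was lost without vehicle replicate 1 or 3, rapamycin replicate 3, or Torin-2 replicate 2 or 3, with adjusted p of 0.0573 to 0.23, and with another normalization, RLE (0.0522). Against vehicle its rapamycin value of 0.36 had an adjusted p of 0.12, of 0.0169 with the replicate block and of 0.0101 without vehicle replicate 3. Over the 16 alternatives that adjusted p ran from 0.000467 to 0.4.

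Of the subunits of eIF3, the scaffold that joins the small subunit to eIF4F, more rose than fell with each compound, but they did not move as a unit. With Torin-2, 9 of 14 rose, 1 fell and 4 did not pass, beside 32.5% and 32.9% of all genes that rose and fell, with a median log2 fold change of 0.41 against -0.01 for all genes. With rapamycin, 7 rose, 1 fell and 6 did not pass, beside 24.6% and 26.2% of all genes, with a median of 0.18, and with libraries scaled by totals alone 6 rose and 3 fell, Eif3c and Eif3j1 being added to Eif3b. Without replicate 3 of all groups the counts were 9 and 1, and 7 and 1, but with Torin-2 Eif3k was lost (edgeR adjusted p 0.0908) and Eif3d gained (0.0208).

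Eif3a, the largest core subunit (ENSMUSG00000024991, chromosome 19 from 60761117 to 60790658), stood at 187, 184 and 217 CPM with vehicle, 303, 276 and 311 CPM with rapamycin and 469, 413 and 499.8 CPM with Torin-2. The groups did not overlap and ran upward from vehicle through rapamycin to Torin-2, by 1.23 ± 0.09 (SE, edgeR adjusted p 1.41e-07) with Torin-2 and 0.60 ± 0.09 (SE, edgeR adjusted p 0.000126) with rapamycin. Eif3b, its partner in the core, stood at 296, 329.7 and 313 CPM with vehicle, 213, 222 and 216 CPM with rapamycin and 172, 174 and 175 CPM with Torin-2 and ran the other way without overlap, with -0.85 ± 0.05 (SE, edgeR adjusted p 5.1e-08) with Torin-2 and -0.53 ± 0.05 (SE, edgeR adjusted p 8.68e-06) with rapamycin. It was the only eIF3 subunit that fell with either compound under the TMM scaling. The ratio of Eif3a to Eif3b per kb of exon was 0.241 ± 0.0265 with vehicle, 0.524 ± 0.0416 with rapamycin and 1.02 ± 0.0979 with Torin-2 (SD, n = 3).

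Eif3e stood at 127, 133 and 123 CPM with vehicle, 232, 226 and 256 CPM with rapamycin and 229, 237 and 237 CPM with Torin-2, and Eif3h at 218, 209 and 206 CPM with vehicle, 351, 332 and 396 CPM with rapamycin and 364, 369 and 378 CPM with Torin-2. For both genes each treated library lay above vehicle and the 2 compounds overlapped. Their log2 fold changes were 0.88 and 0.81 with Torin-2 and 0.90 and 0.77 with rapamycin, with edgeR adjusted p from 9.77e-08 to 2.72e-06. Eif3f, which with Eif3h carries an MPN domain, stood at 139.9, 130.5 and 189 CPM with vehicle, 299, 294 and 322 CPM with rapamycin and 225, 224 and 234 CPM with Torin-2. Its rapamycin libraries were the highest and Torin-2 lay between, so that it rose by 0.99 ± 0.11 (SE, edgeR adjusted p 2.21e-05) with rapamycin and 0.57 ± 0.11 (SE, edgeR adjusted p 0.000659) with Torin-2, with -0.42 ± 0.11 (SE, edgeR adjusted p 0.00765) for Torin-2 against rapamycin.

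Eif3g and Eif3i, which bind Eif3b, rose with Torin-2 by 0.40 and 0.41 and stood at -0.02 and 0.02 with rapamycin (edgeR adjusted p 0.757 and 0.778). Both were higher with Torin-2 than with rapamycin, by 0.42 ± 0.06 (SE, edgeR adjusted p 5.93e-05) and 0.39 ± 0.05 (SE, edgeR adjusted p 5.97e-05). Eif3m, Eif3l and Eif3k rose with both compounds, at 0.60, 0.42 and 0.15 with Torin-2 and 0.56, 0.24 and 0.28 with rapamycin. The Torin-2 call for Eif3k (edgeR adjusted p 0.0173) was lost without Torin-2 replicate 3, and the rapamycin call for Eif3l was lost with libraries scaled by totals, at adjusted p of 0.0679 and 0.0941. Eif3c, Eif3d, Eif3j1 and Eif3j2 passed in no comparison. Their log2 fold changes against vehicle lay between -0.12 and 0.22, and Eif3d with Torin-2 had an adjusted p of 0.123, or 0.0495 with the replicate block.

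**Figure D3:**
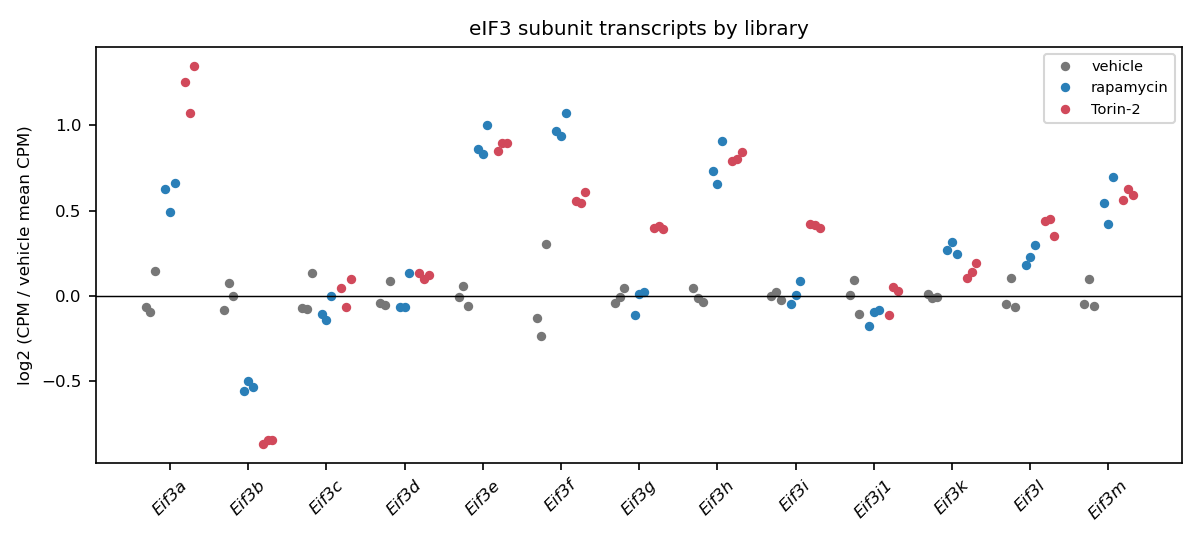
Level of 13 eIF3 subunits in each library as log2 of CPM over the vehicle mean of that gene, with each point 1 library and 3 per group; Eif3j2, under 5 CPM, is left out. Eif3a rises and Eif3b falls in order from vehicle through rapamycin to Torin-2, Eif3e, Eif3f, Eif3h and Eif3m lie above 0 with both compounds, and Eif3g and Eif3i do so with Torin-2.

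Within eIF4F, the cap-binding complex, the cap-binding subunit and the main helicase fell while the second helicase rose. Eif4e, which binds the cap (ENSMUSG00000028156, chromosome 3 from 138526179 to 138559696), stood at 192, 211 and 187 CPM with vehicle, 125, 131 and 150.2 CPM with rapamycin and 96.9, 101 and 103 CPM with Torin-2. The groups ran downward without overlap, to 1.97-fold lower with Torin-2 (log2 fold change -0.98 ± 0.07 SE, edgeR adjusted p 2.89e-07) and 1.46-fold lower with rapamycin (-0.54 ± 0.07 SE, edgeR adjusted p 8.59e-05). Eif4e2, a cap-binding repressor, fell with Torin-2 (-0.21, edgeR adjusted p 0.0125, or 0.056 without vehicle replicate 1), and Eif4e3 passed in no comparison.

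Eif4a1, the main RNA helicase of the complex, stood at 1744, 1777 and 1696 CPM with vehicle, 1271, 1271 and 1270.3 CPM with rapamycin and 1206, 1249.6 and 1165 CPM with Torin-2. Both treated groups lay below vehicle, with log2 fold changes of -0.45 ± 0.05 (SE, edgeR adjusted p 2.74e-05) with rapamycin and -0.53 ± 0.05 (SE, edgeR adjusted p 2.82e-06) with Torin-2. Eif4a2, its paralog (ENSMUSG00000022884, chromosome 16 from 23107444 to 23114136), stood at 77.2, 73.2 and 86.1 CPM with vehicle, 155, 129.7 and 201 CPM with rapamycin and 394, 394 and 433 CPM with Torin-2. The groups ran upward without overlap, to 2.05-fold with rapamycin (log2 fold change 1.04 ± 0.13 SE, edgeR adjusted p 4.84e-05) and 5.16-fold with Torin-2 (2.37 ± 0.13 SE, edgeR adjusted p 2.45e-08), the largest rise of any tested member with Torin-2. Torin-2 lay above rapamycin by 1.33 ± 0.13 (SE, edgeR adjusted p 6.01e-06).

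Per kb of exon, Eif4a1 exceeded Eif4a2 27.3 ± 2.86-fold with vehicle, 10 ± 2.14-fold with rapamycin and 3.66 ± 0.312-fold with Torin-2 (SD, n = 3). Exons of Eif4a2 overlap Rfc4 on the opposite strand, and 5 annotated small nucleolar RNA (snoRNA) genes lie within it. The strand setting of the counts is not known. Rfc4 had a mean of 5.6 CPM and fell with both compounds (-0.998 and -0.855 with rapamycin and Torin-2). In all, 9 members host an annotated snoRNA gene, among them Eif4a1, Eif3a, Eif5, Eef1b2, Eef2, Eif4g1 and Eif4g2. The snoRNA reads were not separated for any of them.

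The scaffolds of eIF4F differed in direction. Eif4g1, the main scaffold, stood at 305, 292 and 308 CPM with vehicle, 302, 269 and 272 CPM with rapamycin and 196, 183 and 187 CPM with Torin-2. Torin-2 lay below both other groups, with -0.68 ± 0.06 (SE, edgeR adjusted p 7.99e-07) against vehicle and -0.58 ± 0.06 (SE, edgeR adjusted p 9.24e-06) against rapamycin. With rapamycin its value of -0.10 had an edgeR adjusted p of 0.16, which was 0.0122 with libraries scaled by totals and 0.0405 without rapamycin replicate 1. Over the 16 alternatives that adjusted p ran from 0.0122 to 0.455.

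Eif4g2, a relative that lacks the eIF4E-binding site (ENSMUSG00000005610, chromosome 7 from 111067750 to 111083030), stood at 787, 942 and 801 CPM with vehicle, 569, 683 and 633 CPM with rapamycin and 1314, 1309 and 1345 CPM with Torin-2. Rapamycin was the lowest group and Torin-2 the highest, without overlap, with -0.42 ± 0.08 (SE, edgeR adjusted p 0.00108) for rapamycin and 0.65 ± 0.08 (SE, edgeR adjusted p 2.08e-05) for Torin-2 against vehicle, and 1.07 ± 0.08 (SE, edgeR adjusted p 1.23e-06) between them. Eif4g3 stood at 32.8, 22.8 and 38.8 CPM with vehicle, 72.4, 57.3 and 56.1 CPM with rapamycin and 35.3, 27.3 and 32.3 CPM with Torin-2, with rapamycin above the other groups, which overlapped. It rose with rapamycin by 0.97 ± 0.17 (SE, edgeR adjusted p 0.000512) and differed by -0.97 between Torin-2 and rapamycin (edgeR adjusted p 0.000545), while Torin-2 against vehicle gave 0.01 (95% interval -0.37 to 0.38, adjusted p 0.975). The ratio of Eif4g1 to Eif4g2 per kb of exon was 0.502 ± 0.0608 with vehicle, 0.629 ± 0.0997 with rapamycin and 0.199 ± 0.0077 with Torin-2 (SD, n = 3).

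Eif4b, which stimulates the helicase and is a substrate of S6 kinase, stood at 238, 220.5 and 244 CPM with vehicle, 475, 427 and 475 CPM with rapamycin and 367, 352 and 325 CPM with Torin-2. Its order was rapamycin, Torin-2, vehicle, without overlap, with 0.97 ± 0.07 (SE, edgeR adjusted p 6.74e-07) for rapamycin, 0.57 ± 0.07 (SE, edgeR adjusted p 1.11e-05) for Torin-2 and -0.40 ± 0.07 (SE, edgeR adjusted p 0.000378) between them. Eif4h, a related helper, fell slightly with both compounds (-0.15 and -0.13, edgeR adjusted p 0.0168 and 0.0437). The rapamycin call for Eif4h was lost in 8 of the 9 fits that left out a library, the exception being rapamycin replicate 3, and the Torin-2 call without Torin-2 replicate 1 (adjusted p 0.057).

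**Figure D4:**
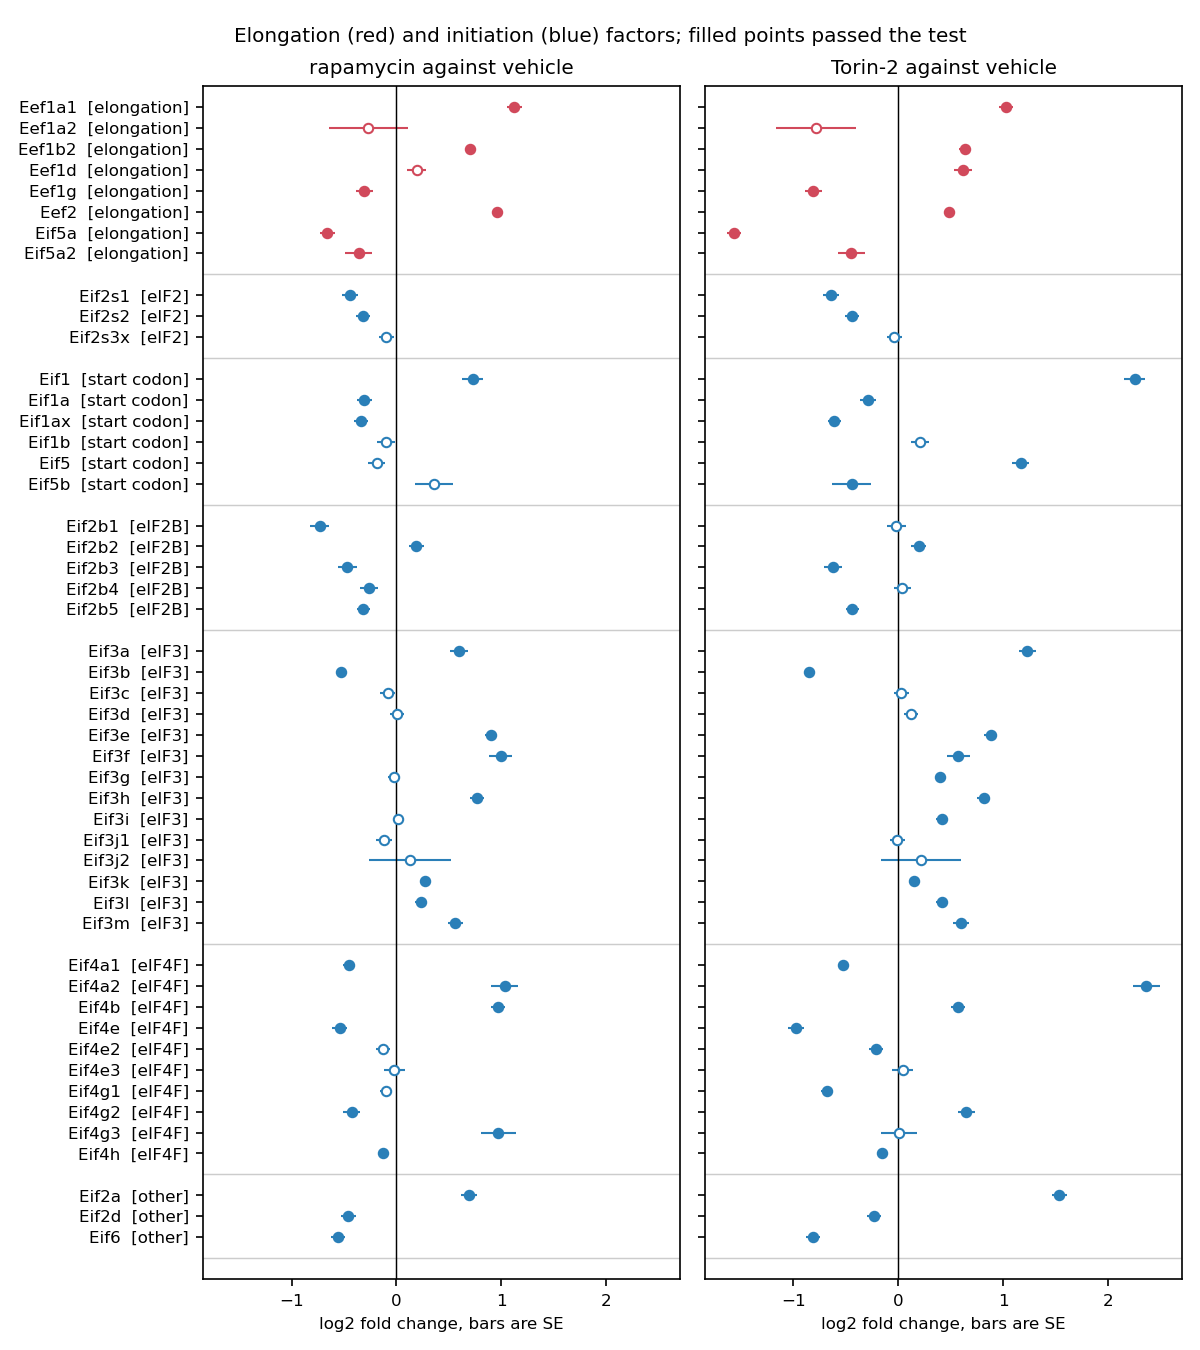
Log2 fold change against vehicle of the 8 elongation factors (red) and the 41 tested initiation factors (blue), with SE bars, for rapamycin and Torin-2 (both panels share the vehicle libraries); filled points passed the edgeR test at an adjusted p under 0.05. Eif4a2 and Eif1 lie farthest to the right with Torin-2, at 2.37 and 2.25, and Eif5a farthest to the left at -1.57.

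The 3 remaining initiation proteins all moved with both compounds. Eif2a, which can deliver initiator tRNA without eIF2 (ENSMUSG00000027810, chromosome 3 from 58525821 to 58557501), stood at 57.9, 62.3 and 59.6 CPM with vehicle, 93.5, 88.1 and 108 CPM with rapamycin and 175, 179 and 168 CPM with Torin-2. The groups ran upward without overlap, by 0.69 ± 0.07 (SE, edgeR adjusted p 1.64e-05) with rapamycin and 1.54 ± 0.07 (SE, edgeR adjusted p 7.68e-09) with Torin-2. Its exons overlap Serp1 on the opposite strand, which had a mean of 511 CPM and fell by 0.28 and 1.17 on the log2 scale in the same comparisons. Eif6, which keeps the large subunit from joining too early, stood at 107, 114 and 107 CPM with vehicle, 67.97, 77.2 and 78.05 CPM with rapamycin and 58.98, 64.7 and 63.5 CPM with Torin-2, with the groups running downward without overlap (-0.55 and -0.81, edgeR adjusted p 3.48e-05 and 5.55e-07). Eif2d, another tRNA-delivering factor, fell with both (-0.46 and -0.23, edgeR adjusted p 0.000216 and 0.0106). Exons of Eif2d overlap Rassf5 on the opposite strand, which had a mean of 22.5 CPM and fell by 0.41 with rapamycin and 0.53 with Torin-2 on the log2 scale.

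The 4E-binding proteins, which mTOR complex 1 phosphorylates to free eIF4E, differed from each other. Eif4ebp1 stood at 53.4, 55.7 and 64.1 CPM with vehicle, 47.4, 57.4 and 58.9 CPM with rapamycin and 45.03, 49.1 and 40.3 CPM with Torin-2. Torin-2 lay below vehicle, with -0.37 ± 0.10 (SE, edgeR adjusted p 0.00686), a call lost without replicate 3 of all groups (adjusted p 0.061), and rapamycin overlapped vehicle (-0.08, 95% interval -0.30 to 0.14). Eif4ebp2 stood at 54.3, 55.5 and 53.3 CPM with vehicle, 81.3, 85.5 and 82.01 CPM with rapamycin and 102, 94.4 and 95.4 CPM with Torin-2, running upward without overlap, by 0.61 ± 0.05 (SE, edgeR adjusted p 3.86e-06) with rapamycin and 0.84 ± 0.05 (SE, edgeR adjusted p 6.84e-08) with Torin-2. Eif4ebp3 had 1 count in all 9 libraries together.

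The ratio of Eif4ebp1 to Eif4ebp2 per kb of exon was 2.8 ± 0.317 with vehicle, 1.73 ± 0.181 with rapamycin and 1.22 ± 0.135 with Torin-2 (SD, n = 3). Both binding proteins together, per kb, stood at 1.09 ± 0.124 times Eif4e with vehicle, 1.74 ± 0.121 times with rapamycin and 2.23 ± 0.172 times with Torin-2 (SD, n = 3). Per library that ratio was 1.05, 0.994 and 1.23, then 1.71, 1.88 and 1.64, then 2.36, 2.3 and 2.04, without overlap between groups. Eif4enif1, which carries eIF4E to the nucleus, had a log2 fold change of 0.20 with each compound (edgeR adjusted p 0.0254 and 0.0399), and both calls were lost with DESeq2 (0.0609 and 0.081). Leaving out 1 library also ended the Torin-2 call (vehicle replicate 1 or 2, Torin-2 replicate 1 or 3) and the rapamycin call (any vehicle replicate, rapamycin replicate 1 or 3, Torin-2 replicate 3).

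**Figure D5:**
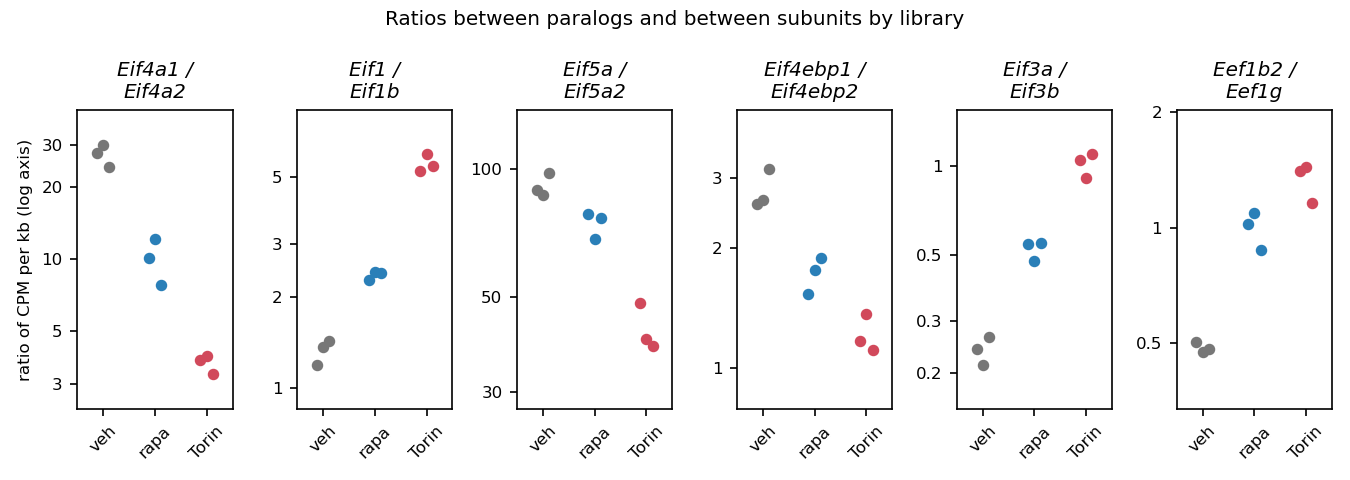
Ratio of CPM per kb of exon for 4 pairs of paralogs and 2 pairs of subunits in each library, on log axes whose ranges differ, with each point 1 library and 3 per group. Eif4a1 over Eif4a2 falls from 27.3 to 3.66 on average between vehicle and Torin-2, Eif1 over Eif1b rises from 1.33 to 5.54, and the rapamycin libraries lie between in all 6 pairs.

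The 4 eIF2 kinases, each of which answers a different stress, showed 4 patterns. Eif2ak1 (HRI, the heme-regulated kinase) stood at 42.2, 41.1 and 41.2 CPM with vehicle, 65.1, 68.05 and 67.7 CPM with rapamycin and 61.01, 59.1 and 59.8 CPM with Torin-2, above vehicle with both compounds (0.69 ± 0.05 SE, edgeR adjusted p 1.2e-06 with rapamycin and 0.53 ± 0.05 SE, edgeR adjusted p 2.26e-06 with Torin-2). Its exons overlap Aimp2 on the opposite strand, which had a mean of 14.2 CPM and fell. Eif2ak2 (PKR, which binds double-stranded RNA) stood at 16.7, 16.7 and 17.3 CPM with vehicle, 15.4, 14.3 and 15.2 CPM with rapamycin and 10.7, 10.5 and 10.97 CPM with Torin-2, lowest with Torin-2 (-0.66 ± 0.08 SE, edgeR adjusted p 1.8e-05), and with rapamycin its value of -0.18 had an edgeR adjusted p of 0.0867, or 0.0136 with libraries scaled by totals. Over the 16 alternatives the rapamycin adjusted p ran from 0.0136 to 0.362.

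Eif2ak3 (PERK, of the endoplasmic reticulum) stood at 29.5, 29.9 and 30.9 CPM with vehicle, 36.7, 32.2 and 38.5 CPM with rapamycin and 27.8, 23.6 and 23.3 CPM with Torin-2. Rapamycin was the highest group and Torin-2 the lowest, with -0.53 ± 0.09 (SE, edgeR adjusted p 0.000452) for Torin-2 against rapamycin. Each step from vehicle was smaller, at 0.25 and -0.27 (edgeR adjusted p 0.0323 and 0.017). The first was lost with libraries scaled by totals (adjusted p 0.164) and without vehicle replicate 1 or 2 or rapamycin replicate 1 or 3, and the second without Torin-2 replicate 2 or 3. Eif2ak4 (GCN2, which senses uncharged tRNA) stood at 17.1, 17.8 and 17.4 CPM with vehicle, 19.1, 16.8 and 17.3 CPM with rapamycin and 19.9, 19.2 and 18.6 CPM with Torin-2 and passed in no comparison (edgeR adjusted p 0.127, 0.829 and 0.231). Eef2k, the kinase that inactivates eEF2, stood at 26.1, 26.8 and 26.5 CPM with vehicle, 22.1, 20.3 and 22.7 CPM with rapamycin and 22.9, 21.4 and 21.6 CPM with Torin-2, below vehicle with both compounds (-0.29 ± 0.07 SE, edgeR adjusted p 0.00579 and -0.27 ± 0.07 SE, edgeR adjusted p 0.00581 with rapamycin and Torin-2).

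Among the remaining members, Eif1ad, whose product resembles eIF1A, fell most, standing at 46.2, 52.9 and 48.7 CPM with vehicle, 25.5, 28.9 and 30.6 CPM with rapamycin and 21.9, 19.8 and 22.2 CPM with Torin-2, downward without overlap (-0.79 ± 0.09 SE, edgeR adjusted p 1.6e-05 with rapamycin and -1.21 ± 0.09 SE, edgeR adjusted p 1.83e-07 with Torin-2). Its exons overlap Banf1 on the opposite strand, which had a mean of 44.4 CPM and also fell, by 0.64 and 1.07 on the log2 scale. Eif4a3, the helicase of the exon junction complex, fell by 0.25 with rapamycin and 0.39 with Torin-2, and Eef1e1, a scaffold of the aminoacyl-tRNA synthetase complex, by 0.50 and 0.33. Of 4 tested methyltransferases acting on elongation factors, Eef1akmt1 fell with Torin-2 (-0.40, edgeR adjusted p 0.0227), and Eef1akmt1 and Eef2kmt with rapamycin (-0.41 and -0.43, adjusted p 0.0267 and 0.00103). The Torin-2 call for Eef1akmt1 was lost without vehicle replicate 2 or Torin-2 replicate 3 (0.0809 and 0.105), and its rapamycin call without vehicle replicate 2 or rapamycin replicate 1 or 3 (0.0645 to 0.105). The 1 tested pseudogene, a copy of the eIF4A helicase, fell with both compounds, as Eif4a1 did, and shared reads cannot be told apart.

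Besides the tract, 3 motifs were searched on both strands in the 250 bases before the RefSeq starts. CACGTG, the E-box read by MYC and TFE/MITF proteins, was found for 12 of 52 members (23.1%), against 6.86% of 27025 genes. Those 27025 genes were not limited to genes tested here, whereas 51 of the 52 members were tested, so the 2 shares are not like for like. CACGTG and TGACGTCA read the same on both strands and share the core ACGT. TGACGTCA, the palindromic cyclic AMP response element, and TGTTTAC, a forkhead motif, were each found in 0 members in these 250 bases, against 1.77% and 3.54% of genes. The search ended at the start, and the start window of Eef2 printed above holds TGACGTCA just after it. Of the 12 members with the E-box, 7 fell with Torin-2 (Eef2k, Eif4a1, Eif4e, Eif4g1, Eif4h, Eif5a and Eif5a2), 3 rose (Eef2, Eif3f and Eif3k) and 2 did not pass. Of all 51 tested members with a window 20 fell and 18 rose, and of all genes 32.9% fell. The windows below show it in capitals, with 12 bases on either side, for 4 members that fell with Torin-2 and for Eef2 and Eif3f, which rose.
Eif4e chr3:138527192-138527221 + strand: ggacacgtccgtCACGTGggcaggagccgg
Eif4g1 chr16:20672661-20672690 + strand: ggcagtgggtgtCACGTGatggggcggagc
Eif5a chr11:69921443-69921472 - strand: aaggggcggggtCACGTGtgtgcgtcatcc
Eif4a1 chr11:69672595-69672624 - strand: cgatcgcctccgCACGTGtaaaggtgctgg
Eef2 chr10:81176576-81176605 + strand: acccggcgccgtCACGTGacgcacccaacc
Eif3f chr7:108934335-108934364 + strand: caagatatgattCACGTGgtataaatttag
The motif begins 64, 54, 74 and 189 bases before the start in the first 4 genes and 43 and 68 in the last pair. Eif4e and Eif5a have several RefSeq starts, and the distance is to 1 of them. A shared motif is a description of the sequence and was not tested against the changes.

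Torin-2 and rapamycin differed directly in 35 of 65 tested members, 16 higher with Torin-2 and 19 lower. Of all tested genes 24.2% were higher and 24.1% lower. Some of these calls were weak. Those of Eif3k and Eif4a3 (edgeR adjusted p 0.0459 and 0.0474) were lost with DESeq2 (adjusted p 0.0563 and 0.0638). Both were also lost in edgeR with libraries scaled by totals (0.392 and 0.366) and with no filter (0.279 and 0.25). Eif3k was lost without vehicle replicate 1 or 3, rapamycin replicate 1 or 2, or Torin-2 replicate 1 or 2. Eif4a3 was lost without any single library except vehicle replicate 2. Eif2d was lost without rapamycin replicate 1 or 2 or any Torin-2 replicate, and Eif3l without replicate 1 or 2 of either compound. Those of Eif2ak1 and Eif4ebp1 (edgeR adjusted p 0.0222 and 0.034) were each lost in 6 of 16 alternatives. The members highest with Torin-2 relative to rapamycin were Eif1, Eif5, Eif4a2, Eif4g2 and Eif2a, at log2 fold changes of 1.52, 1.35, 1.33, 1.07 and 0.85. The lowest were Eif4g3, Eif5a, Eif5b, Eif4g1 and Eif2ak3, at -0.97, -0.91, -0.80, -0.58 and -0.53. Of 41 initiation factors 13 were higher with Torin-2 and 10 lower, and of 8 elongation factors 1 was higher (Eef1d) and 3 lower (Eef2, Eef1g and Eif5a), with class medians of 0.03 and -0.29. Eef1a1 and Eef1b2 did not pass, at -0.10 and -0.08 (95% intervals -0.24 to 0.05 and -0.20 to 0.05).

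Genes that work with these factors were read from lists outside the set. Their counts stand beside 32.5% of all tested genes that rose and 32.9% that fell with Torin-2, and 24.6% and 26.2% with rapamycin, and in each pair of values Torin-2 against vehicle comes first and rapamycin against vehicle next. Of 5 poly(A)-binding genes, 4 rose with Torin-2, and 3 rose and 1 fell with rapamycin. Among them Pabpc1, the main poly(A)-binding protein and itself a TOP mRNA, rose by 1.13 and 1.21 on the log2 scale, and Paip2b, a brake on it, by 1.25 with Torin-2 alone (-0.13 with rapamycin, edgeR adjusted p 0.378, and 1.38 between the compounds, adjusted p 1.48e-06). Of 5 scanning helpers and brakes, 1 rose and 3 fell with Torin-2, and 2 rose and 1 fell with rapamycin. Pdcd4, which blocks the eIF4A helicase and is degraded after phosphorylation by S6 kinase, rose with both, at 2.34 ± 0.09 (SE, edgeR adjusted p 1.74e-09) and 2.11 ± 0.09 (SE, edgeR adjusted p 2.55e-08).

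Among 9 kinases and phosphatase subunits that act on the factors, 3 rose and 4 fell with Torin-2, and 1 rose and 4 fell with rapamycin. Ppp1r15a (GADD34), which directs dephosphorylation of eIF2 alpha, rose by 1.55 ± 0.15 (SE, edgeR adjusted p 1.66e-06) and 0.63 ± 0.15 (SE, edgeR adjusted p 0.00398), and Dnajc3 (p58IPK), an inhibitor of eIF2 kinases, fell, at -1.81 ± 0.06 (SE, edgeR adjusted p 6.7e-10) and -0.65 ± 0.06 (SE, edgeR adjusted p 6.08e-06). Mknk1, a kinase of eIF4E, rose with Torin-2 (0.66, edgeR adjusted p 4.02e-06) and stood at -0.08 with rapamycin (0.357). Of 7 mitochondrial and selenocysteine factors, 4 fell with Torin-2 and 5 with rapamycin and none rose, with Tufm, the mitochondrial elongation factor, at -0.72 and -0.57. Of 8 tested termination and recycling factors 5 fell with each compound and none rose, again beside 32.9% and 26.2% of all genes falling, with Gspt1, the release factor eRF3, at -0.78 and -0.40. Of 8 tested enzymes that modify eIF5A or eEF2, 2 fell with Torin-2 and 6 with rapamycin, and Dhps, which makes the hypusine of eIF5A, passed in neither (0.01 and -0.14, edgeR adjusted p 0.955 and 0.118).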

How the data were processed

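RNA was sequenced as paired-end reads of 100 bp from 9 libraries, 3 per group. The authors deposited whole-number read counts per gene, unnormalized. The submitters' processing notes name STAR 2.5.2a, FastQC and bcl2fastq, and list GRCm38.p6 and mm10 as builds. Which program counted the reads, and with which strand setting and annotation, is not given in the sources used here. Positions, exon lengths, overlaps and snoRNA hosts come from GENCODE M21 (GRCm38), in which all 76 symbols were found, and sequences from RefSeq on GRCm38.p6. Several members without a RefSeq window are named only.

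Counts were analysed with edgeR 4.0.16 (R 4.3.3): filterByExpr by group, TMM factors of 0.955 to 1.05, and 1 quasi-likelihood fit of 9 libraries in 3 groups, with 2-sided tests and p-values adjusted by Benjamini and Hochberg's method across all 12511 tested genes, called at 0.05. Fold changes are relative to other genes. Tested on simulated data for Torin-2 against vehicle, the fit recovered 86% of 200 genes changed by 1 on the log2 scale. It made 12 false calls in a fit of 12306 genes, the changed ones included. The simulation held no pairing and few changed genes, whereas 8182 of 12511 genes were called with Torin-2 in the data. Its rates therefore need not hold for the data. Levels per kb divide CPM by the union of annotated exons, which holds retained introns, so ratios between genes are approximate. Alternatives were other normalizations, DESeq2 1.42.0, no filter, the replicate number as a block, only the 2 groups compared and leaving out libraries. Deviations from group means correlated at 0.168 to 0.5 in the 9 same-numbered pairs and -0.358 to 0.162 in the 18 others. Same-numbered libraries were thus more alike, and whether they mark the same animal is not stated. The main fit did not use this pairing. SE, intervals and adjusted p come from that unpaired fit unless another setting is named, and the pairing enters only in the replicate block.

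Members and lists were chosen with earlier results of these data known. Values per library are given for the 5 largest rises and falls per comparison among protein-coding members of at least 5 CPM that passed, and for members fixed by name; genes of related lists are named as up to 3 rises and falls per list. Eef1a2, Eif1b, Eif5a2 and Dhps were added after their values were seen.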

Additional observations from a re-analysis of the deposited data

How the results depend on the processing

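Under the 16 alternatives no call reversed among the members chosen by rule or fixed by name, for which 29 calls were lost and 25 gained over all settings. Counts of members called stayed within 1.5 times: leaving out 1 library gave 44 to 51 for Torin-2, 39 to 44 for rapamycin and 28 to 36 for Torin-2 against rapamycin, and the replicate block gave 53, 49 and 37 in place of 50, 45 and 35. The block changed no calls of named members beyond those given beside them. Class medians lie near 0 and moved more. With libraries scaled by totals alone, the initiation median was -0.19 and the elongation median -0.14 for rapamycin, and the initiation median 0.11 for Torin-2 against rapamycin. Without Eif5a and Eif5a2, 1 elongation factor fell with Torin-2 and 1 with rapamycin, the elongation medians were 0.55 and 0.45, their distances from the initiation medians 0.51 and 0.55, and the class ratios 1.19, 2.468 and 1.844 for vehicle, rapamycin and Torin-2. Leaving out 1 library moved the elongation median from -0.12 to 0.11 for rapamycin and from -0.32 to -0.13 for Torin-2 against rapamycin. The initiation median ran from 0.005 to 0.102 for Torin-2 and from -0.019 to 0.051 for Torin-2 against rapamycin. The distance between class medians (elongation less initiation) ran from -0.12 to 0.03 for Torin-2, from -0.034 to 0.199 for rapamycin and from -0.34 to -0.17 between the compounds, so its sign for either compound against vehicle was not fixed. For these moves the cause was not tested. Members near 1 CPM, such as Eif3j2, are limited by depth.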
